A study of Mus musculus with 577 samples.

Results

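The genes described here are 47 protein-coding genes of the cell cycle, of 22060 protein-coding genes counted, found by gene symbol. They were taken in 3 groups by role. DNA replication held 14 genes (Mcm2 to Mcm7, Pcna, Cdc6, Cdt1, Gmnn, Rrm1, Rrm2, Tyms and Traip). Mitosis held 23 genes (Mki67, Top2a, Cdk1, Ccna2, Ccnb1, Cdc20, Bub1, Bub1b, Aurka, Aurkb, Plk1, Kif11, Kif20a, Kif23, Cenpa, Cenpe, Cenpf, Birc5, Nusap1, Prc1, Ube2c, Cdca8 and Fam64a). Control of the G1 phase held 10 genes (Ccne1, Ccne2, Ccnd1, Ccnd2, Ccnd3, Cdk2, Cdk4, E2f1, Rb1 and Cdkn1b).

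The study sequenced RNA of mouse cells cut from tissue sections by laser capture microdissection (LCM), with a lysis step named DRaqL in which a denaturing detergent opens the fixed cell and is then quenched. In 562 gene-count libraries, the cells were mouse embryonic stem cells (mESCs), ovarian granulosa cells and oocytes. The mESCs, of 1 culture batch in 2i-LIF medium (CHIR99021, PD0325901 and LIF), were either 45 freshly dissociated cells or 36 cells cut by LCM from alcohol-fixed sections of a frozen cell block. The ovaries came from females aged 8 weeks, snap-frozen and cut at 15 μm, and 1 experiment used sections fixed in formalin for 24 h. The labels name no strain and no genotype, and no genetic change or drug treatment is named for the ovaries. Granulosa cells cut from sections were either neighboring (next to the oocyte) or non-neighboring, of follicles from the secondary to the early antral stage that were chosen by morphology. Oocytes came either from primary follicles or from secondary to antral follicles, here called grown oocytes. Single granulosa cells formed 8 sets by method, called SC3-seq, SMART-Seq v4, DRaqL-SMART-Seq v4, LCM-seq, DRaqL-Smart-seq2, formalin, same-mouse LCM and same-mouse fresh. Per the study's text, the methods compared on sections shared a single ovary, and the protease method of the formalin set was among them. Agreement between these sets is therefore not agreement between animals. The same-mouse sets used 1 animal in proestrus, with 1 ovary cut by LCM and the cumulus-oocyte complexes of the other dissociated in medium with dibutyryl-cAMP. These complexes came from fully grown follicles. There, neighboring cells were those attached to the oocyte, and non-neighboring ones were other granulosa cells of the complexes. The paper reports profiles mixed with those of oocytes among these cells, more often in attached ones, and they were kept here. Pools of 10 granulosa cells were taken as 7 neighboring and 7 non-neighboring samples, and 7 bulk samples held the granulosa cells of a whole sectioned follicle.

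A cell that divides copies its DNA in S phase and separates the copies in mitosis. The MCM helicase is loaded on replication origins by Cdc6 and Cdt1, and geminin (Gmnn) blocks a second loading. Cyclin B1 (Ccnb1) with Cdk1 starts mitosis, and the anaphase-promoting complex, with its activator Cdc20 and the enzyme Ube2c, destroys cyclin B1 at its end. D-type cyclins with Cdk4 release E2F from Rb1 in G1. Granulosa cells divide as a follicle grows, whereas the oocyte does not divide, and it stores messenger RNAs, cyclin B1 among them, for its later meiotic divisions.

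Promoter sequences are given for 6 members to show the letters that recur in the mitosis and replication genes. The RefSeq table of the build GRCm38.p6 held the window from 250 bases before to 50 after the start for 37 of the 47 members, and Mcm4, Gmnn, Ccna2, Aurkb, Kif20a, Fam64a, Ccne2, Ccnd1, Ccnd2 and Rb1 were not matched. The letters TTTGAA, known as a cell cycle homology region and searched on both strands, were in the window of 14 of 19 mitosis genes, 2 of 12 replication genes and 0 of 6 G1 genes, against 20.2% of the windows of 27025 genes. In the lines below the capitals mark this match, and TTCAAA is the same match read on the other strand.
Ube2c, chr2:164769888-164769917, plus strand: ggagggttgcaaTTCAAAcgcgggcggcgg
Top2a, chr11:99024195-99024224, minus strand: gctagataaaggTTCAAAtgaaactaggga
Cdc20, chr4:118437344-118437373, minus strand: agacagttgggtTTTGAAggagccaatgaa
Cdk1, chr10:69352913-69352942, minus strand: ctttaccgcggcgagTTTGAAactgctggc
Each of these 4 matches lay within the 29 bases before the start, which does not hold for all mitosis genes. The only matches of Bub1b, Aurka, Plk1, Cenpa, Cdca8, Kif23 and Cenpf began 2 to 40 bases after the start. Those of Mki67 began at −116 and −98, and Top2a and Cdk1 held a second match at −179 and −71. Binding sites of E2F were searched as TTTCCCGC, TTTGGCGC, TTTCGCGC and TTTGCCGC on both strands, and 6 of 12 replication genes, 1 of 19 mitosis genes and 1 of 6 G1 genes held at least 1, against 2.60% of all windows. For this motif the capitals below mark 1 match in Mcm6 and a pair of overlapping matches on opposite strands in Mcm5.
Mcm5, chr8:75109349-75109378, plus strand: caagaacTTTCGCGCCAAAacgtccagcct
Mcm6, chr1:128359734-128359763, minus strand: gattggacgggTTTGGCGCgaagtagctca
The letters CCAAT, also searched on both strands, were in 17 of 19 mitosis, 9 of 12 replication and 3 of 6 G1 windows, and in 41.1% of all windows. A match of letters is a description of the window and shows no binding.

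Levels are RPM, the reads of a gene scaled to the library's total over protein-coding genes, and log2 (RPM+1) where a log scale is named. The number of reads limits how low a level can be seen. It ranged from 204699 to 2770637 in freshly dissociated mESCs, from 379431 to 3440997 in cell-block mESCs, from 12748 to 6749468 in single granulosa cells, from 873206 to 2338750 in SC3-seq oocytes and from 3811945 to 8259281 in pools and bulk samples. No animal is named for the single cells, and the cells of a group were treated as 1 sample. Their SDs show how cells vary, and groups of single cells were compared by their values without a test. Levels of different genes are not compared, since counts were not divided by gene length and SC3-seq reads 3′ ends. In 10 mESC libraries sequenced a second time for junctions, the nearest gene-count library over 2072 genes carried the other label in all 10 cases (r of 0.621 to 0.799). Which labels hold cannot be told apart. If those of the gene-count table were swapped as a whole, each direction between fresh and cell-block cells would turn. In addition, 1 library labelled as a cell-block cell is listed as fresh in the study's source data. Summed markers of oocytes were 0 to 242 RPM in mESCs, and 4 of 5 pluripotency markers had a mean of at least 4 on the log2 scale. Grown oocytes showed 13 or 14 of 14 oocyte markers at that level, whereas the primary oocytes showed 11 in SC3-seq, 12 in formalin, 5 in SMART-Seq v4 and 4 in DRaqL-SMART-Seq v4, where 3 were at 0.

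In mESCs, the 47 genes were at similar levels in freshly dissociated and cell-block cells, with 4 exceptions past a difference of 1 on the log2 scale. Their median difference, cell-block minus freshly dissociated, was 0.03, against −0.05 for all genes detected. Over all these genes, 0.442% were higher by more than 1 and 5.12% were lower. Of the members, 2 were higher and 2 lower by this amount, and the same number of 4 stood past 1 without the 10 cells of the second sequencing, or without the cell-block cell listed as fresh. Other values of mESCs include all 81 cells. Replication genes had a median difference of −0.31, with 4 of 14 above 0, mitosis genes one of 0.45, with 17 of 23 above 0, and G1 genes one of −0.04, with 4 of 10 above 0.

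Traip, a ubiquitin ligase that acts at stalled or converging replication forks, ranged from 0 to 6.85 in fresh cells and from 0.60 to 7.55 in cell-block cells on the log2 (RPM+1) scale. Its mean was 3.12 ± 1.92 (SD, n = 45) and 4.98 ± 1.91 (SD, n = 36), a difference of 1.86. Fam64a, a mitotic regulator also named Pimreg, had means of 2.72 ± 2.33 and 4.30 ± 2.48 and was detectable in 39 of 45 and 32 of 36 cells. The ranges of fresh and cell-block cells overlapped almost wholly for both genes. Cdk2, the kinase partner of cyclins E and A, ranged from 0.97 to 7.42 in fresh cells and from 0 to 7.75 in cell-block cells. Its mean was 4.10 ± 1.69 and 2.52 ± 2.19, and it was detectable in 45 of 45 and 28 of 36 cells. Rrm2, a subunit of ribonucleotide reductase, had means of 6.66 ± 1.39 and 5.32 ± 1.55. Differences within 1 included 0.84 for Cenpf and 0.83 for Bub1, a kinetochore protein and a checkpoint kinase, 0.82 for the checkpoint protein Bub1b, 0.75 for the proliferation marker Mki67, −0.68 for the licensing factor Cdt1, −0.57 for the spindle motor Kif11 and −0.55 for Ccnd1.

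Mean log2 (RPM+1) was 6.26 in fresh and 7.01 in cell-block cells for Mki67, and 8.14 and 8.58 for the topoisomerase Top2a. It was 5.46 and 5.90 for Cdk1, 8.53 ± 1.19 and 9.01 ± 1.13 for Ccnb1, and 9.53 and 9.57 for Pcna, the sliding clamp of DNA polymerase. The helicase subunit Mcm2 was at 8.36 and 8.44. Of the D-type cyclins, Ccnd1 was at 7.16 and 6.61 and Ccnd3 at 7.12 and 7.33, whereas Ccnd2 was detectable in 6 of 45 and 4 of 36 cells. The inhibitor Cdkn1b (p27) was detectable in 16 of 45 and 17 of 36 cells. The steadiest member was Cdk4, at 9.38 ± 0.43 and 9.49 ± 0.45, with all 81 cells between 8.26 and 10.32. Of the wider pathway list, 0 of 32 other S-phase genes were higher and 4 lower by more than 1, and 3 of 33 other G2/M genes were higher and 0 lower.

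Single mESCs differed far more from one another than both types did. Summed over the 23 mitosis genes, the level was 687 RPM in the lowest, 3415 RPM in the median and 9933 RPM in the highest of 81 cells, a range of 14.5-fold. Summed replication genes ranged from 2548 over 4673 to 7676 RPM, which is 3.01-fold, and the G1 genes from 617 over 1301 to 2018 RPM. Across cells the mitosis and replication sums had a Spearman rho of −0.393 (fresh −0.358, cell-block −0.468), and they share the total that each RPM is divided by. The mitosis sum had a rho of 0.257 with the number of reads per cell, and the part of depth in its spread was not tested.

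**Figure D1:**
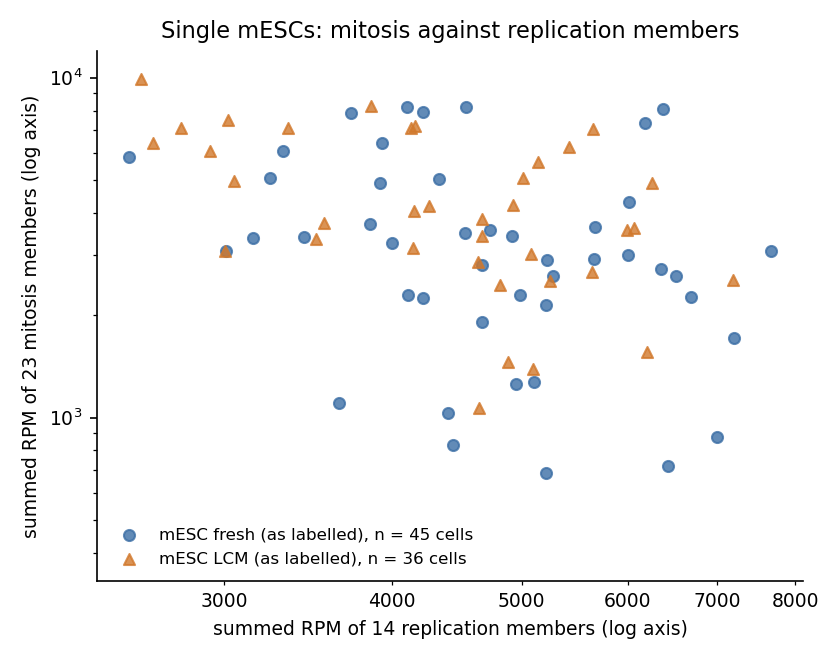
Summed level of the 23 mitosis genes (vertical log axis, RPM) against that of the 14 replication genes (horizontal log axis, RPM) in single mESCs, with 1 point per cell for 45 freshly dissociated and 36 cell-block cells. The cells spread from 687 to 9933 RPM on the mitosis axis and from 2548 to 7676 RPM on the replication axis, and the points of both types overlap.

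The spread of single members differed between the roles, which also differed in level. Among mESCs, the SD of log2 (RPM+1) had a median of 1.60 over the 22 mitosis genes with a mean of at least 4, from 1.15 in Cdca8, a subunit of the chromosomal passenger complex, to 2.47 in the spindle protein Nusap1. Over 12 replication genes this median was 0.80, from 0.59 in Mcm5 to 1.46 in Rrm2, and over 5 G1 genes it was 0.99, from 0.44 in Cdk4 to 1.60 in the cyclin Ccne1. It was 1.36 over all genes at this level. The members below a mean of 4 included Cdc6 and Traip of replication, with SDs of 1.76 and 1.92, and Fam64a of mitosis, with 2.40. The part of level in these spreads was not tested.

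The mitosis genes also went up and down together from cell to cell. Over the 81 cells, centred within each type, the 253 pairs of mitosis genes had a median rho of 0.426, with 223 pairs above 0.3 and none below 0. The median was 0.504 in fresh and 0.334 in cell-block cells. The 91 pairs of replication genes had a median rho of 0.113, with 11 above 0.3, the pairs of a mitosis and a replication gene one of −0.101, with 48 of 322 below −0.3, and pairs of G1 genes one of 0.050. All pairs of 4937 genes had a median of 0.0094, with 1.87% above 0.3. The most alike pairs all held Ube2c, the ubiquitin-conjugating enzyme of the anaphase-promoting complex. Its rho was 0.761 with the kinase Plk1, 0.719 with Nusap1, 0.707 with the kinase Aurka, 0.699 with Top2a and 0.690 with Ccnb1. At the other end, rho was −0.609 between Mcm4 and Top2a and −0.576 between Mcm6 and Prc1, a protein of the central spindle.

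Each of the 23 mitosis genes had a rho above 0.3 with the sum of the other 22. It was 0.800 for Ube2c, 0.770 for Plk1, 0.760 for Ccnb1, 0.730 for Nusap1 and 0.723 for the centromere histone Cenpa, and lowest for Kif11 with 0.376 and Fam64a with 0.438. Of the 33 other G2/M genes, which are not members, 27 had a rho above 0.3 with the mitosis sum, against 3.52% of all genes, and they included Tpx2 with 0.750, Kif2c with 0.639 and Ccnb2 with 0.620. Of the replication genes, 7 of 14 had a rho above 0.3 with the sum of the other replication genes, as did 15 of 32 other S-phase genes and 2.39% of all genes. Among genes of no list, Kpna2 with 0.754, Tuba1c with 0.743 and Tubb4b with 0.709 were near the mitosis sum.

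Reads of Ccnb1 and Pcna can be shared with near-identical copies. Ccnb1 (chr13:100778650-100786570) has a copy named Gm10184 (chr17:89908462-89910449), which took 1.08 to 1.10 reads for each read of Ccnb1 in mESCs, 1.25 in pools, 4.72 in primary SC3-seq oocytes and 0.668 in grown ones. Pcna (chr2:132249162-132253314) has the copy Pcna-ps2 (chr19:9283380-9284160), with 0.551 to 0.989 reads for each read of Pcna. Levels of both members are therefore uncertain, and only their differences by oocyte stage and the level of Ccnb1 in granulosa cells and oocytes of SC3-seq are also given with the copy. All other values are those of the gene alone. Coordinates are those of GRCm38.

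In granulosa cells, at least 5 mitosis genes were detectable in nearly every cell, and the mitosis genes moved together in all 8 sets. At least 5 of the 23 mitosis genes were detectable in 327 of 330 cells (99.1%), with 4 in the lowest, 19 in the median and 23 in the highest cell. The share for other genes of like level was not computed. When a gene needed at least 5 reads, the share was 90.0%, and after thinning to 51128 reads per cell it was 92.97%, or 304 of 327 cells. Without the cells that held oocyte RNA (defined below) the share was 98.96%, or 286 of 289 cells. The mitosis sum was 25.0 RPM in the lowest, 2871 RPM in the median and 13108 RPM in the highest cell, and the replication sum 11.1, 1266 and 5687 RPM. The median rho of the 253 mitosis pairs, centred within each group, was 0.286, with 41.5% of the pairs above 0.3 and none below 0. It was between 0.166 in SC3-seq and 0.440 in DRaqL-SMART-Seq v4 and same-mouse fresh cells. All pairs of 3209 genes had a median of 0.062, with 0.159% above 0.3. The most alike pairs held Mki67, with a rho of 0.528 with the cytokinesis motor Kif23, 0.498 with Top2a, 0.490 with Cenpf and 0.485 with Cdk1. Replication pairs had a median rho of 0.146 and mixed pairs one of 0.086.

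The levels of single members in granulosa cells spanned wide ranges between methods. On the log2 scale, the group means over 16 groups ran from 4.54 to 9.72 for Mki67, from 5.87 to 9.20 for Top2a, from 3.63 to 6.82 for Cdk1, from 2.70 to 6.59 for Ccnb1, from 2.18 to 7.30 for Mcm2 and from 4.08 to 8.22 for Pcna. The D-type cyclins differed from those of mESCs, where Ccnd1 was high and Ccnd2 seldom detectable. Ccnd2, the cyclin D of granulosa cells, had group means of 5.87 to 9.57, and Ccnd1 was at 0 in 6 of the 16 groups and at no more than 1.22 in the others. Ccnd3 had means of 1.26 to 4.92 and Cdkn1b of 0.75 to 4.48.

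The median of the mitosis sum was higher in neighboring than in non-neighboring granulosa cells in 6 of 8 sets, with the exceptions of SC3-seq and DRaqL-Smart-seq2, and that of the replication sum in 7 of 8, with the exception of same-mouse fresh cells. In same-mouse fresh cells, position means attachment to the oocyte or not. There the sum and the mean of logs differed in direction for the mitosis genes. By mean log2 (RPM+1), 14 of 23 were above 0, non-neighboring minus neighboring, with a median of 0.36. In the DRaqL-SMART-Seq v4 set the mitosis sum ran from 1009 over 4134 to 8775 RPM in 20 neighboring cells and from 27.6 over 845 to 5701 RPM in 19 non-neighboring cells. In same-mouse LCM cells it ran from 641 over 4755 to 13108 RPM in 35 neighboring and from 113.7 over 2167 to 11879 RPM in 35 non-neighboring cells. Both groups overlapped over most of their range in each of these sets. In formalin the medians were 3356 RPM in 12 neighboring and 1431 RPM in 12 non-neighboring cells. They were 2935 and 1959 RPM in SMART-Seq v4 (17 and 17 cells) and 2652 and 1872 RPM in LCM-seq (17 and 20 cells). They were 5311 and 1993 RPM in same-mouse fresh cells (14 and 21 cells). In DRaqL-Smart-seq2 the medians were nearly equal, at 3157 RPM in 15 and 3165 RPM in 19 cells. In SC3-seq they were the other way round, at 3002 RPM in 31 neighboring and 4006 RPM in 26 non-neighboring cells.

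**Figure D2:**
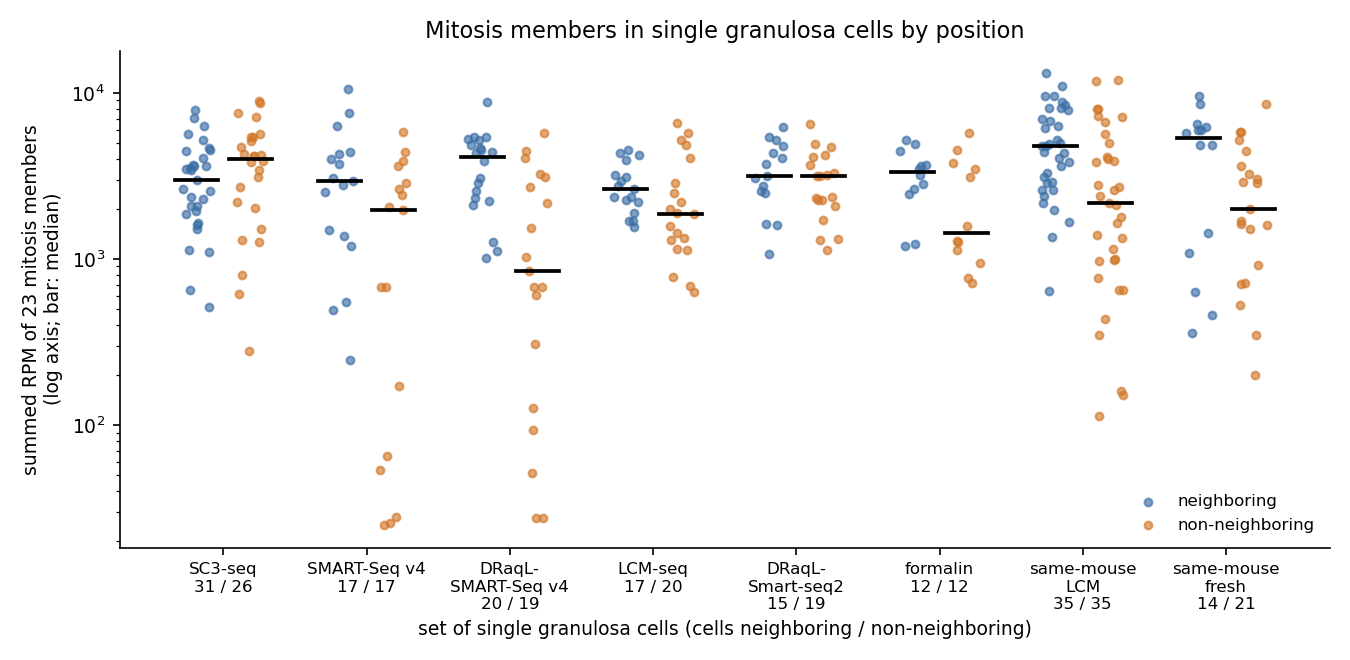
Summed level of the 23 mitosis genes (vertical log axis, RPM) in single granulosa cells of 8 sets (horizontal axis), with 1 point per cell by position and a bar at the median. Position is next to or away from the oocyte, and attached to it or not in same-mouse fresh cells. The median was higher in neighboring cells in 6 of 8 sets, with ranges that overlap in every set.

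The count of members past a difference of 1, non-neighboring minus neighboring, was 154 of 376 gene and set combinations, of which 34 were higher and 120 lower in non-neighboring cells. With a pseudocount of 10 in place of 1 it was 59, with 13 higher and 46 lower. Oocyte RNA moved with position. Cells with summed oocyte markers of at least 10% of the median oocyte were 34 of 161 neighboring (21.1%) and 7 of 169 non-neighboring cells (4.1%), and the median oocyte marker sum was 157 to 2943 RPM in neighboring and 5.0 to 155 RPM in non-neighboring groups. Without these cells the mitosis median was higher in neighboring cells in 6 of 8 sets and the replication median in 7 of 8. The limit keeps cells with less oocyte RNA, since in SC3-seq it was 3692 RPM and the median neighboring cell held 2943 RPM. The part of oocyte RNA in these sums was therefore not tested, and the share for sums of other genes was not computed. Markers of theca and interstitial cells moved with position as well. Over the 8 sets they summed to 0 to 418 RPM in neighboring cells, with a median of 0. In non-neighboring cells they ran from 0 over 9.97 to 21859 RPM. In DRaqL-SMART-Seq v4 they ran from 0 over 3.92 to 157 RPM in neighboring and from 0 over 396 to 13146 RPM in non-neighboring cells. There 0 and 3 of 6 theca markers had a mean of at least 4 on the log2 scale. In formalin and DRaqL-Smart-seq2 it was 0 of 6 in neighboring and 1 of 6 in non-neighboring cells. The part of theca RNA was not tested.

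By set, the members past 1 stood beside the background as follows. In SC3-seq, 7 members were higher in non-neighboring cells and 6 lower, against 7.54% and 2.84% of all genes detected. In SMART-Seq v4, 1 was higher and 15 lower, against 12.1% and 6.90%, and in DRaqL-SMART-Seq v4, 1 was higher and 27 lower, against 11% and 6.67%. These sets differed in sign, since the members' median difference was 0.12 in SC3-seq over 46 detected members, −0.62 in SMART-Seq v4 and −1.42 in DRaqL-SMART-Seq v4, beside 0.05, 0.08 and 0.06 for all genes. In LCM-seq, 1 was higher and 16 lower, against 4.77% and 13%, and in DRaqL-Smart-seq2, 0 were higher and 14 lower, against 5.37% and 8.84%. In formalin, 2 were higher and 19 lower, against 8.66% and 14.8%. The median differences of these 3 sets were −0.45, −0.64 and −0.88, beside −0.13, −0.05 and −0.11 for all genes. In same-mouse LCM cells, 2 were higher and 20 lower, against 6.71% and 4.64%, with a median of −0.90 beside 0.03. In same-mouse fresh cells, 20 were higher and 3 lower, against 33.2% and 3.39%, with a median of 0.63 beside 0.49 for all genes and with a median depth of 87884 reads in neighboring and 132194 in non-neighboring cells.

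Of the 47 members, 1 was below 0 in all 8 sets, which is near the share of all genes. Over 13284 genes detected in every set, 2.14% were below 0 and 2.48% above 0 in all 8, and no member was above 0 in all 8. The member below 0 was Bub1b, a checkpoint protein at the kinetochore, with differences from −3.81 to −0.10 and a median of −0.76. Over the 8 sets Ccnb1 had differences from −3.09 to 0.70, with a median of −1.21. Bub1b and Ccnb1 were also higher in oocytes than in granulosa cells in all 6 sets compared. The part of oocyte RNA in their differences by position was not tested. The medians were −0.89 for Mki67, −1.38 for Cenpf, −1.14 for Nusap1 and −1.23 for Mcm4.

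The members with the largest differences changed from set to set, among those with a mean of at least 4 in 1 of both positions. In DRaqL-SMART-Seq v4 the mean of Cdca8 was 6.80 ± 2.88 in neighboring and 3.14 ± 3.00 in non-neighboring cells, that of Cenpf 7.40 ± 1.75 and 4.04 ± 3.82, and that of Mki67 7.80 ± 2.69 and 4.54 ± 3.51. The differences of the cyclins Ccna2 and Ccnb1 in that set were −3.13 and −3.09. In SMART-Seq v4 the differences were −2.45 for Cenpf, −2.35 for Cdc20, −2.14 for Ccnb1, −1.96 for the reductase subunit Rrm1 and −1.63 for Mki67. Cdk2, with means of 3.51 and 1.59 that were both below 4, differed by −1.92 in SMART-Seq v4. In formalin the mean of Bub1b was 5.65 ± 2.60 and 1.84 ± 2.74, and Mcm2 (−2.46), the survivin gene Birc5 (−2.43), Plk1 (−2.25) and Mcm3 (−2.19) followed, while the motor Kif20a was higher by 2.37. In same-mouse LCM cells the helicase subunit Mcm5 was at 4.58 ± 3.45 and 1.86 ± 2.62, followed by Mcm4 (−2.29), Cenpf (−2.08), Mki67 (−1.94) and Ccnb1 (−1.83). In LCM-seq the differences were −2.12 for Cdca8, −1.86 for the cyclin Ccne2, −1.75 for Mcm7, −1.70 for Prc1 and −1.68 for Plk1, and Rrm1 was higher by 1.55. In DRaqL-Smart-seq2 they were −1.50 for Aurka, −1.39 for Mcm4, −1.38 for Ccne2, −1.37 for the transcription factor E2f1 and −1.30 for Birc5, with Aurkb highest at 0.97.

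SC3-seq and same-mouse fresh cells had members on the other side. In SC3-seq the differences were 1.59 for Ccna2, 1.48 for Fam64a, 1.25 for Birc5, 1.23 for Prc1 and 1.15 for Cdk1, all mitosis genes, and −1.38 for Mcm6, −1.25 for Rrm1 and −1.09 for Ccnd2. In same-mouse fresh cells the mean of Rrm2 was 3.30 ± 3.49 in neighboring and 6.88 ± 2.23 in non-neighboring cells, followed by Cdc6 (2.96), geminin (2.66), Mcm4 (2.61) and Pcna (2.19). The G1 inhibitor Cdkn1b, with means of 0.75 and 3.78 that were both below 4, was higher by 3.03 there. The motor Kif23 (−1.39) and Ccnb1 (−1.04) were lower in non-neighboring cells there. For every gene named here by set, the ranges of single cells of both positions overlapped.

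In the pools of 10 granulosa cells, where samples and not cells are compared, most replication and mitosis genes were lower in non-neighboring pools, but no member passed the test. Over all members that majority was small once the neighboring pools that held oocyte RNA were left out, as given below. With 7 pools a group, edgeR's quasi-likelihood test called 0 of 43 members at an adjusted p of 0.05, and 3 had an unadjusted p under 0.05. Over all 9704 genes tested, 0.474% were called, or 46 genes, all lower in non-neighboring pools, and 4.15% had an unadjusted p under 0.05. Of the members, 31 of 43 were below 0, with 12 of 13 replication genes (median −0.46), 18 of 23 mitosis genes (median −0.57) and 1 of 7 G1 genes (median 0.31), while 4818 of all 9704 genes were below 0 (median 0.01). The labels name no animal for a pool, so that p-values cover the spread between these pools. Fewer dividing cells and less RNA per cell cannot be told apart in pools and bulk samples.

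The 3 members with the smallest p were Mcm7, Ccnb1 and Bub1b, given here as RPM in pools 1 to 7. Mcm7, a helicase subunit, had 203, 316, 393, 646, 412, 275 and 280 in neighboring pools and 132, 104.3, 178, 151, 285, 62.2 and 288 in non-neighboring pools. Non-neighboring pools were lower on the whole, with an overlap between 203 and 288 RPM. The log2 fold change was −1.07 with an SE of 0.40 (edgeR p = 0.0148, adjusted p = 0.817). Ccnb1 had 103.9, 139, 180.0, 157, 589, 190 and 115.8 in neighboring pools and 4.32, 65.4, 56.3, 88.02, 30.4, 93.4 and 114.2 in non-neighboring pools. The groups overlapped by 1 neighboring pool at 103.9 RPM and 1 non-neighboring pool at 114.2 RPM. The log2 fold change was −1.62 with an SE of 0.61 (edgeR p = 0.0152, adjusted p = 0.817). Bub1b had 34.0, 106.7, 183, 299, 246, 343 and 45.8 in neighboring pools and 3.60, 1.80, 39.2, 21.7, 108.02, 0.262 and 64.5 in non-neighboring pools. Neighboring pools 1, 2 and 7 lay within the range of the non-neighboring pools, and the log2 fold change was −2.45 with an SE of 0.93 (edgeR p = 0.0153, adjusted p = 0.821). Neighboring pools 4, 5 and 6, the highest for Bub1b, also held the most oocyte markers, and pool 5 was the highest for Ccnb1. Over all settings, with a fit without these pools among them, log2 fold changes were −3.22 to −1.68 for Bub1b and −1.90 to −1.04 for Ccnb1. Both genes are higher in oocytes than in granulosa cells, and the part of oocyte RNA was not tested.

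The next members by p were Mcm2 with a log2 fold change of −1.17 (SE 0.57) and Mcm3 with −1.12 (SE 0.61), both at an adjusted p of 0.998 in edgeR. Mcm2 was at 46.7 to 320 RPM in neighboring and at 20.6 to 168 RPM in non-neighboring pools. Cenpa at −1.26, the licensing factor Cdc6 at 2.19 and Ccnd3 at 1.36 were at the same adjusted p of 0.998. Mki67 ranged from 0.953 to 349 RPM in neighboring and from 0 to 332 RPM in non-neighboring pools, and Ccnd2 from 140 to 1249 and from 50.9 to 1705 RPM. Ccnd1 had reads in 1 neighboring and 1 non-neighboring pool only.

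Summed levels of the pools overlapped for each role. The mitosis sum ran from 1339 over 2520 to 3475 RPM in neighboring and from 390 over 1195 to 3032 RPM in non-neighboring pools, the replication sum from 916 over 2035 to 3244 and from 465 over 1028 to 1703 RPM, and the G1 sum from 544 over 1040 to 1734 and from 754 over 992 to 2194 RPM. RNA of other cells moved with position here as well. The 14 oocyte markers summed to 856 to 8865 RPM in neighboring and to 2.3 to 151 RPM in non-neighboring pools, and neighboring pools 4, 5 and 6 held at least 10% of the median oocyte. Without these 3 pools, 24 of 45 members were below 0, a smaller share than with all pools, and 0 members and 0 genes were called. Theca markers summed to 1000 RPM or more in neighboring pool 1 and in non-neighboring pools 1, 2 and 6, and without these pools 30 of 46 members were below 0 and 0 were called. Of the wider list, the oocyte cell cycle regulators Btg4 (log2 fold change −7.57, SE 1.36) and Mos (−6.50) were called lower, both at an adjusted p of 0.0137 in edgeR. Of the other S-phase genes 30 of 31 were below 0 and of the other G2/M genes 26 of 30, with 0 called.

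**Figure D3:**
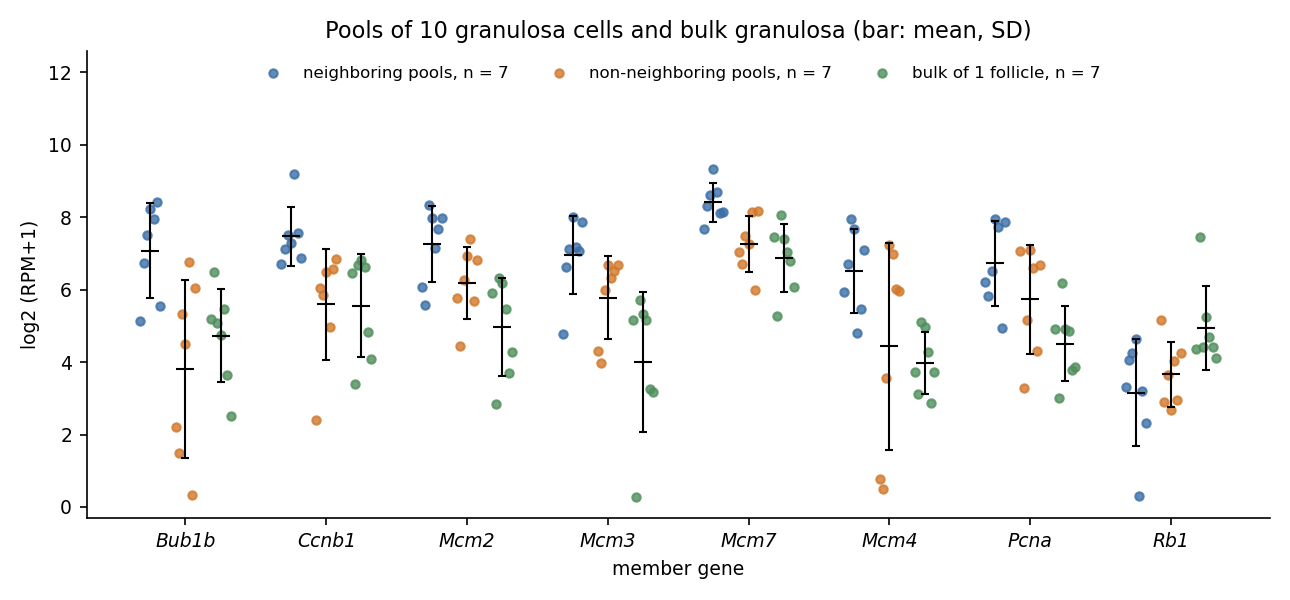
Level (vertical axis, log2 (RPM+1)) of Bub1b, Ccnb1, Mcm2, Mcm3, Mcm7, Mcm4, Pcna and Rb1 in 7 neighboring pools, 7 non-neighboring pools and 7 bulk samples, with 1 point per sample and the mean with its SD. The mean of the neighboring pools is above those of the other groups for Bub1b and Ccnb1, and the mean of the bulk samples is the lowest for the MCM genes and Pcna.

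Bulk samples of granulosa cells had lower levels of replication and mitosis genes than the pools, and again no member passed the test. Per the study's text, the pools came from early antral follicles, whereas bulk follicles without an oocyte in the section had no identified stage. Bulk samples also held many more cells. Stage and number of cells cannot be told apart from other differences between bulk samples and pools. Of 46 members tested, 0 were called and 12 had an unadjusted p under 0.05, while over all 11917 genes 0.227% were called, or 27 genes, and 6.11% had an unadjusted p under 0.05. Lower in bulk were 12 of 14 replication genes (median −1.53), 22 of 23 mitosis genes (median −0.88) and 6 of 9 G1 genes (median −0.16), with a median of −0.09 for all genes. Pcna was at 28.9, 7.04, 71.9, 29.4, 27.9, 12.9 and 13.6 RPM in bulk samples 1 to 6 and 8, at 29.9 to 247 RPM in neighboring and at 8.80 to 135 RPM in non-neighboring pools. All but 1 bulk sample were below every neighboring pool. The log2 fold change of Pcna, bulk minus pools, was −1.88 with an SE of 0.62 (edgeR p = 0.00508, adjusted p = 0.361). Mcm2 was at 6.21 to 79.1 RPM in bulk (−1.66, SE 0.55, adjusted p = 0.372 in edgeR) and Mcm3 at 0.207 to 51.3 RPM (−2.002, SE 0.67, adjusted p = 0.380 in edgeR). Mcm4 was at 6.31 to 33.8 RPM in bulk, at 27.2 to 248 RPM in neighboring and at 0.400 to 149 RPM in non-neighboring pools. Non-neighboring pools thus lay on both sides of bulk, and the log2 fold change of Mcm4 was −2.32 with an SE of 0.83 (edgeR adjusted p = 0.450). Rb1, which holds E2F in check, was higher in bulk, at 16.2 to 174 RPM against 0.238 to 23.8 and 5.45 to 35.03 RPM in the pools (1.82, SE 0.74, adjusted p = 0.585 in edgeR). Without the 4 pools that held theca RNA, Mcm4 and Mcm5 were called lower in bulk, with a smallest adjusted p of 0.0337 in edgeR, and 43 of 46 members were lower. Over all genes, 145 were called in that fit, or 1.14%. Cdkn1c, a CDK inhibitor of the wider list, was called higher in bulk by 5.37 (SE 1.18, edgeR adjusted p = 0.0464). Without the pools that held oocyte RNA no CDK inhibitor was called, with a smallest adjusted p of 0.0658.

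In oocytes, most of the 47 genes were higher in grown than in primary oocytes, in all 4 sets that hold both. Past 1 on the log2 scale, 29 were higher and 1 lower in SC3-seq, 19 and 3 in SMART-Seq v4, 28 and 2 in DRaqL-SMART-Seq v4 and 33 and 1 in formalin. Over all genes detected, 21.2%, 24.8%, 26.3% and 20.9% were higher by more than 1 in these sets, and among genes with a mean of at least 4 in 1 of both stages 35.2%, 32.7%, 37.8% and 28.1% were. Over all 4 sets 14.2% of gene and set combinations were lower by more than 1. The members' median differences were 1.28, 0.66, 1.23 and 1.79, beside 0.04, 0.19, 0.12 and −0.01 for all genes. The groups held 30, 11, 9 and 7 grown and 14, 7, 6 and 5 primary oocytes.

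**Figure D4:**
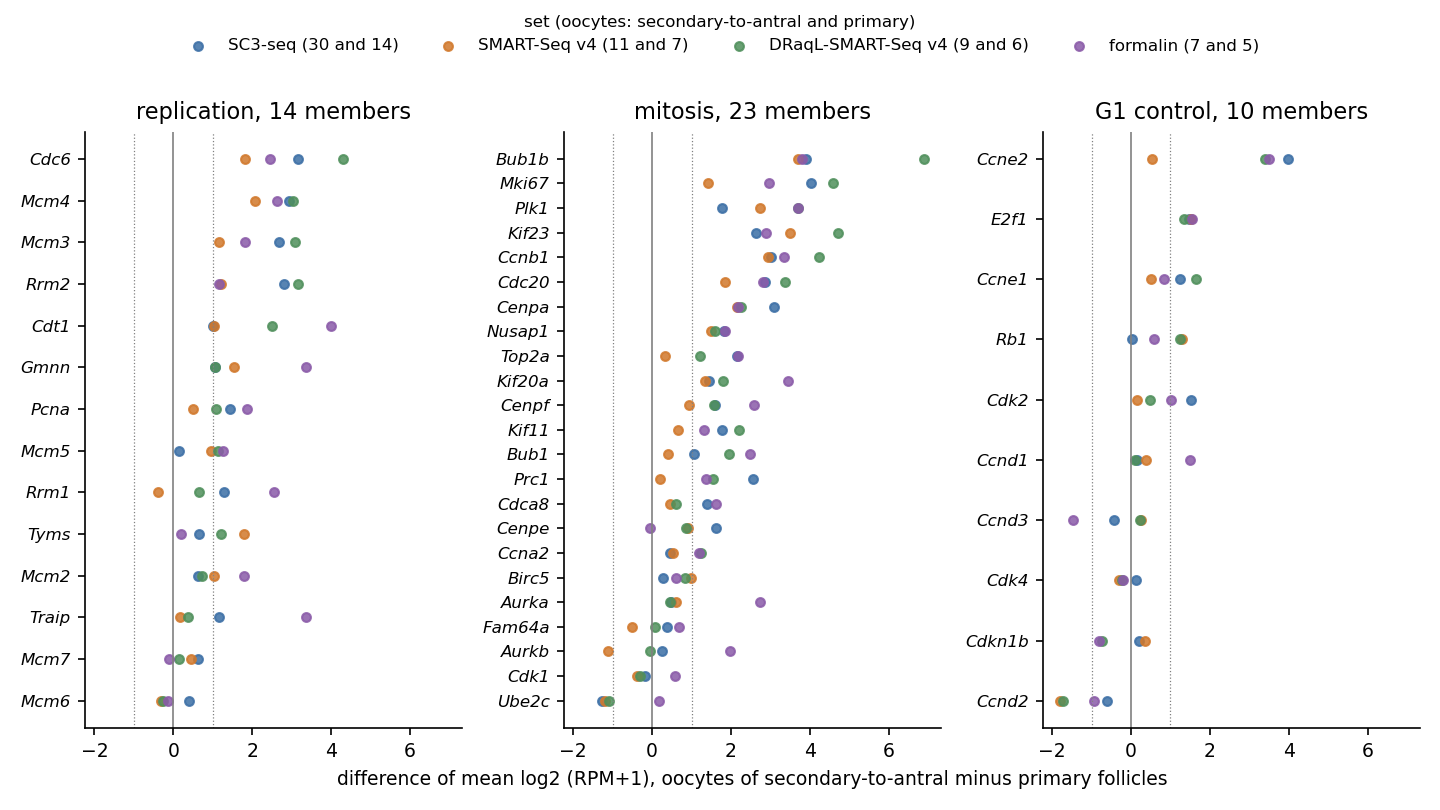
Difference of mean log2 (RPM+1), grown minus primary oocytes (horizontal axis), for each of the 47 members (vertical axis) in 1 panel per role, with 1 color for each of 4 sets and dotted lines at 1 and −1. Of the members, 35 lie above 0 in all 4 sets and Ccnd2 lies below 0 in all 4.

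Above 0 in all 4 sets were 35 of 47 members, against 30.4% of 16778 genes detected in every set. They were 11 of 14 replication genes, 18 of 23 mitosis genes and 6 of 10 G1 genes. Past 1 upward in all 4 were 16 members, against 10.8% of these genes, namely Mcm3, Mcm4, Cdc6, Cdt1, Gmnn and Rrm2 of replication, Mki67, Ccnb1, Cdc20, Bub1b, Plk1, Kif20a, Kif23, Cenpa and Nusap1 of mitosis, and E2f1. Below 0 in all 4 was 1 member, Ccnd2, against 17.4% of these genes. The median differences of the mitosis genes were 1.62, 0.92, 1.58 and 2.17 and those of the replication genes 1.11, 1.03, 1.11 and 1.84, whereas those of the G1 genes were 0.18, 0.37, 0.37 and 0.72.

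Bub1b showed the largest difference that recurred in all sets. In SC3-seq it ran from 1.41 over 4.74 to 6.51 on the log2 scale in primary and from 6.09 over 9.03 to 9.99 in grown oocytes. The ranges of SC3-seq met only between 6.09 and 6.51. In DRaqL-SMART-Seq v4 Bub1b was detectable in 3 of 6 primary oocytes, with a highest value of 5.87, and ran from 7.34 to 9.65 in grown oocytes, with no overlap. The differences of the means were 3.90, 3.71, 6.89 and 3.79 in the order of sets above.

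Ccnb1 ran from 4.78 over 6.92 to 8.61 in primary and from 8.44 over 9.93 to 11.03 in grown SC3-seq oocytes. In the other 3 sets the highest primary oocyte was at 7.48, 7.46 and 7.52 and the lowest grown one at 8.32, 9.23 and 8.79, so that the stages did not overlap there. The differences were 3.01, 2.93, 4.24 and 3.36 for Ccnb1 alone and 1.17, 1.35, 2.13 and 1.92 when the reads of its copy Gm10184 were added. Those of Pcna were 1.43, 0.50, 1.08 and 1.86 alone and 1.36, 0.47, 1.22 and 1.91 with Pcna-ps2.

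Other mitosis genes followed in all sets. The differences were 4.04, 1.41, 4.58 and 2.96 for Mki67, 2.63, 3.49, 4.72 and 2.90 for Kif23, and 1.78, 2.74, 3.71 and 3.71 for Plk1. In SC3-seq Mki67 ran from 0 over 3.71 to 6.39 in primary and from 6.33 over 7.85 to 8.65 in grown oocytes, which just met. Cdc20, the activator of the anaphase-promoting complex, differed by 2.87, 1.85, 3.38 and 2.82, and the centromere histone Cenpa by 3.10, 2.15, 2.26 and 2.17. Kif20a was among the 5 highest in formalin, with 3.46. Top2a in SC3-seq was at 3.58 ± 2.08 in primary and 5.73 ± 0.81 in grown oocytes.

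Among replication genes, the licensing factor Cdc6 differed by 3.15, 1.81, 4.32 and 2.45 and Cdt1 by 1.02, 1.03, 2.51 and 4.00. In SC3-seq Cdc6 ran from 0 over 2.32 to 7.30 in primary and from 4.08 over 6.40 to 7.13 in grown oocytes, so that single primary oocytes were as high as grown ones. The helicase subunits Mcm4 (2.92, 2.06, 3.05 and 2.64) and Mcm3 (2.68, 1.15, 3.10 and 1.82) were higher in all sets, whereas Mcm6 (0.41, −0.31, −0.27 and −0.14) was nearly level. Rrm2 differed by 2.82, 1.20, 3.17 and 1.162. Mcm2 had means of 4.20 to 6.33 in primary and 5.64 to 6.97 in grown oocytes of these sets.

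The G1 genes divided. E2f1 differed by 1.46, 1.52, 1.35 and 1.55, and Ccne2, an E-type cyclin, by 3.98, 0.53, 3.40 and 3.50. Ccne2 in SC3-seq ran from 0 over 1.43 to 2.82 in primary and from 3.36 over 5.66 to 6.72 in grown oocytes, with no overlap. Ccnd2 was lower, by −0.60, −1.79, −1.73 and −0.95, with SC3-seq means of 5.46 ± 1.86 and 4.86 ± 1.96 that differ by less than the spread over cells. Ccnd1 had means of 0 to 1.50 over all oocyte groups of these sets, Ccnd3 of 4.60 to 6.77 and Cdkn1b of 3.36 to 5.87. Cdk4 differed by 0.14, −0.31, −0.24 and −0.21.

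Ube2c and Cdk1 did not follow the other mitosis genes. Ube2c was lower in grown oocytes by −1.28 in SC3-seq, −1.18 in SMART-Seq v4 and −1.09 in DRaqL-SMART-Seq v4, and was at 0.18 in formalin. In SC3-seq it ran from 7.99 over 9.46 to 10.04 in primary and from 6.68 over 7.91 to 9.41 in grown oocytes. The ranges overlap between 7.99 and 9.41. Cdk1 differed by −0.18, −0.37, −0.30 and 0.58, with SC3-seq means of 6.17 ± 1.43 and 5.99 ± 0.40. Aurkb was lower by −1.13 in SMART-Seq v4.

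The mitosis sum of SC3-seq oocytes ran from 2122 over 2881 to 3802 RPM in primary and from 3570 over 5896 to 7426 RPM in grown oocytes. It ran from 1957 over 2262 to 2863 and from 2189 over 4393 to 5057 RPM in SMART-Seq v4. In DRaqL-SMART-Seq v4 and formalin the highest primary oocytes, at 3587 and 2723 RPM, were below the lowest grown ones, at 5925 and 4994 RPM. The replication sum of SC3-seq ran from 703 over 1210 to 1875 and from 1294 over 1672 to 2120 RPM, and the G1 sum from 237 over 460 to 833 and from 326 over 491 to 722 RPM, so that only the mitosis sum nearly separated the stages. Oocyte markers moved with stage too, from 3720 over 9447 to 21876 RPM in primary and from 18078 to 45666 RPM in grown SC3-seq oocytes. Granulosa markers moved the other way, with medians of their sum of 501, 610, 382 and 1177 RPM in primary and 152, 389, 192 and 519 RPM in grown oocytes in the order of sets above. Ccnd2, which is high in granulosa cells, was also lower in grown oocytes. The part of both marker lists was not tested. Of the wider list of 83 genes, 43, 44, 52 and 49 were higher and 3, 5, 7 and 3 lower by more than 1, among them 8, 9, 8 and 7 of the 12 oocyte cell cycle regulators as higher.

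Against granulosa cells of the same set, grown oocytes had higher levels of most mitosis genes. Lower in all 6 sets were Ccnd2, Cdk4 and Top2a, a share of the members near that of all genes. Past 2 on the log2 scale, 163 gene and set combinations were higher and 11 lower of 282 over 6 sets, against 29.3% and 2.97% for all genes. Among genes with a mean of at least 4 in 1 of both cell types, the members' share was below the background in SC3-seq and same-mouse fresh cells and above it in the other 4 sets. Higher by more than 2 were 25 of 43, 31 of 42, 26 of 42, 24 of 43, 31 of 43 and 22 of 41 members, against 69%, 70.1%, 48.5%, 42.6%, 59.2% and 56.9% of all such genes, in the order of sets that follows. The members' medians were 2.50, 2.97, 2.43, 2.02, 2.83 and 1.90 in SC3-seq, SMART-Seq v4, DRaqL-SMART-Seq v4, formalin, same-mouse LCM and same-mouse fresh cells, beside 0.70, 1.19, 0.31, 0.46, 0.47 and 0.75 for all genes. By the ratio of mean RPM, in place of mean logs, 60 combinations were past 2, of which 35 were higher and 25 lower. With a pseudocount of 10 in place of 1, 95 combinations were past 2.

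Past 2 upward in all 6 sets were 18 members, with 4 of replication, 12 of mitosis and 2 of G1, against 17.4% of 15815 genes detected in every set. In SC3-seq Ccnb1 was at 4.79 ± 3.33 in granulosa cells and 9.89 ± 0.78 in oocytes, and Birc5 at 5.01 ± 3.03 and 9.45 ± 0.33. Traip (4.89), E2f1 (4.63) and Prc1 (4.39) followed in SC3-seq. Over the 6 sets Ccnb1 differed by 5.11, 5.44, 4.63, 4.51, 4.65 and 4.33 and Bub1b by 3.75, 5.13, 5.72, 5.22, 4.42 and 5.90. With the reads of its copy added, Ccnb1 in SC3-seq was at 7.50 in granulosa cells and 10.75 in oocytes, a smaller difference than for Ccnb1 alone. Tyms (5.93), which makes thymidylate, geminin (5.47) and Ccne2 (5.31) were also past 5 in SMART-Seq v4, and Nusap1 (5.67) was in same-mouse fresh cells.

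Below 0 in all 6 sets were 3 of 47 members, Ccnd2, Cdk4 and Top2a. This is near the share of all genes, 6.79% of 15815. Ccnd2 differed by −3.50, −1.80, −3.63, −1.77, −3.98 and −3.28, and its partner Cdk4 by −2.29, −2.12, −2.16, −2.22, −1.36 and −4.86. Top2a differed by −1.41, −1.35, −1.61, −2.005, −1.01 and −0.22. Cdk4 and Ccnd2, its main cyclin in granulosa cells, were both among these, while the E-type cyclin Ccne2 was higher in the sets named above.

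The pair Ccnb1 and Ube2c, which went together in dividing mESCs, went in opposite ways in grown oocytes. Their rho over single cells was 0.661 in 45 fresh and 0.700 in 36 cell-block mESCs. In grown oocytes it was −0.935 in SC3-seq (30 oocytes), −0.455 in SMART-Seq v4 (11), −0.750 in DRaqL-SMART-Seq v4 (9), −0.821 in formalin (7), −0.548 in same-mouse LCM (8) and −0.371 in same-mouse fresh oocytes (14). It was negative in all 6 sets, and 0.191 in 14 primary SC3-seq oocytes. The SC3-seq value was the lowest of all member pairs in grown oocytes of that set, and the pair was singled out after it was seen. Cells of a set share library preparation, and both levels share the total by which they are divided. In the same order of sets, rho between Bub1b and Ube2c was −0.833, −0.827, −0.700, 0.036, −0.690 and −0.433, and that between Ccnb1 and Bub1b 0.868, 0.518, 0.817, 0.179, 0.667 and 0.165. Plk1 and Ube2c, the most alike pair of mESCs with 0.765 in fresh and 0.695 in cell-block cells, had −0.398, −0.573, −0.300, −0.143, −0.095 and −0.235 in grown oocytes. Over all 253 mitosis pairs the median rho of grown SC3-seq oocytes was 0.156, with 32 pairs below −0.3. Grown oocytes span the secondary to the antral stage. Against primary oocytes, Ccnb1 was higher in every set that holds both stages and Ube2c lower in all but formalin. The part of stage within grown oocytes in these rho values was not tested, and Ccnb1 was taken without its copy Gm10184.

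**Figure D5:**
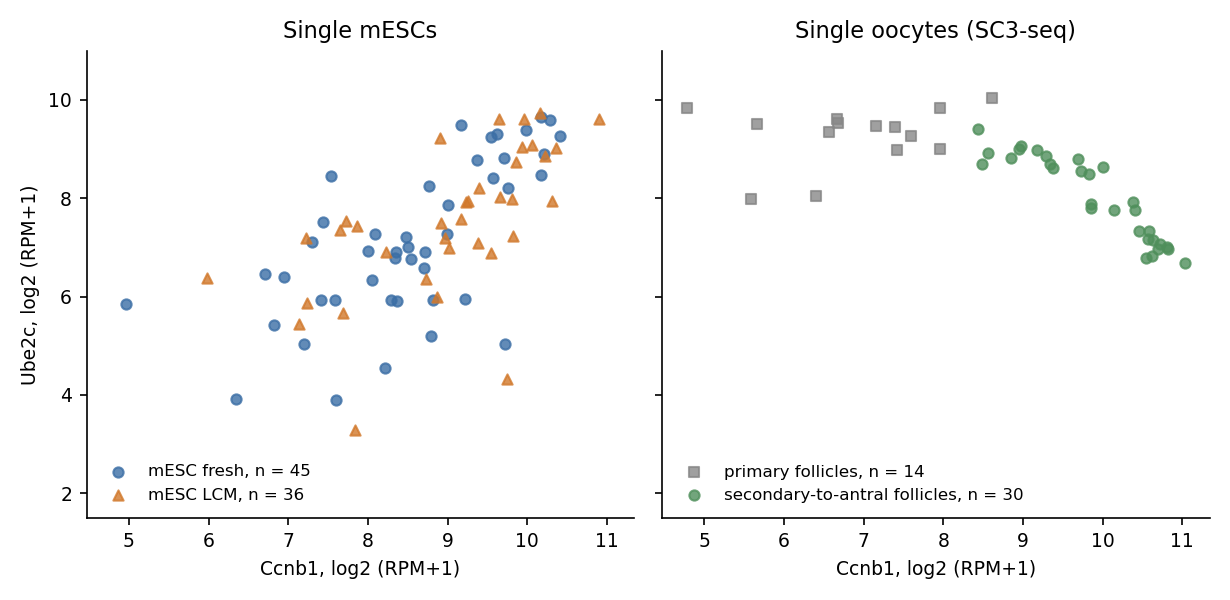
Level of Ube2c (vertical axis, log2 (RPM+1)) against that of Ccnb1 (horizontal axis, log2 (RPM+1)), with 1 point per cell, for 81 mESCs by type in one panel and for 14 primary and 30 grown SC3-seq oocytes in the other. Points of mESCs run upward (rho 0.661 in fresh and 0.700 in cell-block cells), whereas those of grown oocytes run downward (rho −0.935).

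From each of 8 oocytes, 2 sections were sequenced apart, and rho over the 47 members between both sections had a median of 0.958, from 0.867 to 0.982, beside 0.918 for all genes detected. Between sections of different oocytes this rho was nearly as high, with a median of 0.915. The median absolute difference of a member was 0.310 on the log2 scale. After each member was centred over oocytes, rho within an oocyte had a median of 0.221, from 0.0216 to 0.505, against −0.0393 with the sections of other oocytes. The mitosis sum was 4380 to 6710 RPM in the first and 4567 to 6553 RPM in the second sections.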

How the data were processed

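The deposited values were read counts per gene, whole numbers without normalization. Per the labels and methods, the authors made these counts by trimming with cutadapt 1.16 and fastp 0.20.0, aligning with HISAT2 2.1.0 (GRCm38) and assigning reads with HTSeq 0.10.0, which took those on genes and within 10 kb of their 3′ ends, and made exon and junction counts with featureCounts 2.0.1. Such counting can give reads of a near-identical copy or a close neighbor to a gene.

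Reads of 562 libraries in 10 tables were divided by the library's total over 22060 protein-coding genes (RPM), with a pseudocount of 1 for logs. Groups came from the labels. Groups of single cells were compared by differences of means, with 1 (oocytes against granulosa cells, 2) on the log2 scale as the size named and no test. Pools and bulk samples were tested with edgeR 4.0.16 (quasi-likelihood, TMM, filterByExpr, Benjamini-Hochberg at 0.05) in R 4.3.3, which was checked on simulated data, and DESeq2 1.42.0 was an alternative. Figures, sums and Spearman's rho used Python 3.11.15, pandas 2.3.3, numpy 2.4.6, scipy 1.17.1 and matplotlib 3.10.9. Reads carried no molecular identifiers. For LCM-seq and DRaqL-Smart-seq2, which hold no oocytes, the limit for oocyte RNA was taken from SMART-Seq v4 oocytes.

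The members and lists were chosen with earlier results of these data known. Members were named by a rule: in pools and bulk those called or the 5 with the smallest p, in a comparison of single cells the 5 largest differences in each direction with a mean of at least 4 in a group, a fixed set (Mki67, Top2a, Cdk1, Ccnb1, Ccnd1, Ccnd2, Ccnd3, Cdkn1b, Mcm2 and Pcna), Traip and Fam64a in mESCs, and the 5 pairs of highest rho. From the wider list at most 5 genes per comparison were named. Not all of these are printed, and Cdk4, Ube2c, Mcm6 and other members outside the rule, the pair of Ccnb1 and Ube2c and genes near the mitosis sum were singled out after their values were seen. Exon tables and spike-in counts were not used here, and junction libraries served the check of labels only.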

Additional observations from a re-analysis of the deposited data

Results flagged for a closer look

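In groups of 4 to 10 samples, the highest or lowest sample was compared with the gap to its nearest neighbor (Dixon's test at 95%), for the summed levels by role and for members named in pools and bulk samples. Of 54 combinations of a group and a quantity, 9 held a sample far from the others, each the highest, where chance flags about 1 in 20. These combinations are not independent, since 1 oocyte each of DRaqL-SMART-Seq v4 and formalin was flagged for both its replication and its G1 sum. The cause was not tested for any of them.

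Among grown oocytes, 1 DRaqL-SMART-Seq v4 oocyte had 1502 RPM summed over the replication genes, with the others at 1129 to 1312 RPM, and 777 RPM over the G1 genes, with the others at 312 to 502 RPM. In formalin, 1 grown oocyte had 2980 RPM over the replication genes (others 1172 to 1624 RPM) and 1466 RPM over the G1 genes (others 474 to 761 RPM). Among the pools, non-neighboring pool 6 had 2194 RPM over the G1 genes (others 754 to 1038 RPM). Neighboring pool 5 had 589 RPM of Ccnb1, with the others at 103.9 to 190 RPM, and it also held the highest sum of oocyte markers, 8865 RPM. Non-neighboring pool 1 had 35.03 RPM of Rb1 (others 5.45 to 18.0 RPM), and it held theca markers at 3702 RPM. Bulk sample 3 had 71.9 RPM of Pcna (others 7.04 to 29.4 RPM), and bulk sample 2 had 174 RPM of Rb1 (others 16.2 to 36.7 RPM).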

How the results depend on the processing

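Of the recomputed values that answer a comparison, 82 stayed within the limits for an equal result and 30 moved. Of 1440 recomputed values of single genes and sets, 1396 stayed, 43 moved, 1 newly passed the test and 0 turned direction. With a pseudocount of 10, members past the size named numbered 2 in mESCs (4 before), 59 for granulosa position (154) and 95 for oocytes against granulosa cells (174), and by ratios of mean RPM the last was 60. The share of granulosa cells with 5 mitosis genes was 90.0% at 5 reads and 92.97% after thinning (99.1%). Agreement of serial sections was 0.221 after centring (0.958 before). Leaving out 1 formalin oocyte gave 31 to 36 members (34).

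In the pools, 0 members were called under every setting tried. Of all genes tested 0.474% were called, and 1.2% by DESeq2, 0.103% (10 genes) with the pool number as a replicate block, 0 without pools that held oocyte RNA and 0.0614% to 0.446% when 1 number was left out, with 6 to 10 genes without pool number 4, 5 or 6. The numbers did not pair the pools, since 2 of 7 correlations were above 0.1 (0.0059 to 0.188) and 3 of 7 pools were nearest to their own number. In bulk samples 0.227% of genes were called (27 genes), and 0.73% (87) with upper-quartile scaling, 2.66% (534) without a filter, 0.755% (90) by DESeq2, 0.0156% (2) without oocyte-RNA pools, 1.14% (145) without theca-RNA pools and 0 to 0.519% (63) when 1 sample was left out. No gene was called in bulk without bulk sample 5, 6 or 8 or pool number 7, and leaving out pool number 3, 4, 5 or 6 or bulk sample 1, 3 or 4 also moved the count by over 1.5 times. Members called numbered 2 without theca-RNA pools (0 before), and Mcm4 then had an adjusted p of 0.0337 in edgeR. Leaving out pools by oocyte or theca RNA, and cells by near-identical profiles or the check of labels, was chosen after seeing the data. The causes of these shifts were not tested. Depth limits the detection of low genes in single cells, and 7 samples a group limit the tests of pools and bulk samples.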

Other observations

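Among libraries with a close profile, fresh mESCs 25 and 33 had a correlation of 0.972 over genes (median of the group 0.719), and primary SC3-seq oocytes 6 and 14 one of 0.973. Their counts differed by more than sampling noise, with chi-square values of 7.36 and 3.26 per degree of freedom, and they were counted as separate cells.

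The labels put 3 SC3-seq granulosa cells in groups of mixed profile, which entered no comparison. The mitosis sums of the 2 non-neighboring cells were 2230 and 932 RPM and that of the neighboring cell was 5790 RPM. Their replication sums were 1328, 192 and 1391 RPM, and their oocyte markers summed to 1487, 2949 and 11803 RPM. Ccnb1 was at 3.64, 6.15 and 10.14 on the log2 scale in these cells. The dissociated granulosa cells that the paper calls mixed stayed among the 14 neighboring and 21 non-neighboring same-mouse fresh cells. Of those cells, the limit for oocyte RNA marked 3 and 0.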
